A study of Mus musculus with 51 samples.

Results

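VitC-independent 5hmC peaks of osteoblasts are the stretches of DNA that were called enriched for 5-hydroxymethylcytosine (5hmC) in MC3T3-E1 cells both with and without vitamin C (VitC). A member is a peak of the VitC+ list on chromosomes 1 to 19 with a -log10 q of at least 5 that overlaps, by at least 1 bp, a VitC- peak that also has a -log10 q of at least 5. The q value is the false discovery rate that the peak caller gave each peak. The name VitC-independent thus means called in both lists, and not that width or fold stayed the same with VitC. By this rule 65296 of the 198375 VitC+ peaks at that threshold were shared, which is 32.9%. The VitC+ and VitC- lists hold 253424 and 278591 autosomal peaks in all. The members were chosen from the values of the same 2 lists, so that their width, fold enrichment and q are given as a description and without a test.

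MC3T3-E1 is an established line of mouse calvarial pre-osteoblasts, used here as its subclone 4, so that all cells descend from 1 clone. The cells were cultured for 28 days without VitC (VitC-) or with 50 µg/ml VitC (VitC+), and DNA fragments were pulled down with an antibody against 5hmC and sequenced (hMeDIP-seq). The methods also name beta-glycerophosphate, a phosphate source, in the culture of these cells. Femurs of 4 groups of mice gave further 5hmC lists from DNA of decalcified femurs (per the methods), and so from bone tissue rather than from osteoblasts alone. Gulo-/- mice, which cannot make VitC, carried the Gulotm1Mae allele on C57BL/6 and were 20 weeks old. They received VitC in the drinking water throughout (VitC+ femur) or went without it for the last 5 weeks (VitC+/- femur). Ctrl mice carried Prrx1-Cre, a Cre active in limb mesenchyme, and Tet1/2 cKO mice carried Prrx1-Cre with floxed Tet1 and Tet2. Both were 11 weeks old and made their own VitC. Ctrl mice had unfloxed Tet1 and Tet2, and Tet1/2 cKO mice kept both genes in femoral cells outside the Prrx1 lineage. H3K27me3 and H3K9me3 ChIP-seq lists came from MC3T3-E1 cells with and without VitC, after 7 days by the study's methods and the peak names, and 28 days by the sample labels. RNA-seq was made from femurs of WT, VitC+ and VitC+/- mice at 20 weeks, with 3 animals each, from bones that had been flushed and then minced. Each 5hmC list was called on pooled samples, while whether a histone list pools its duplicates is not given in the sources used here. There is 1 list per group, so that no spread between replicates can be given for any peak, and shares below are counts over whole lists.

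5hmC is made from 5-methylcytosine by the TET enzymes, dioxygenases that need iron and are kept active by VitC, which reduces the iron in their active site. In mammalian DNA the mark sits mostly at CpG dinucleotides and is known from enhancers and the bodies of active genes. Histone demethylases of the KDM families and the prolyl and lysyl hydroxylases of collagen are dioxygenases of the same class.

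The sequences below are the VitC+ summits of 5 members with 100 bases on either side, shown because CpG sites are the substrate of TET enzymes and because these peaks carry the extremes of the set. The first 3 are among the 6 members with the highest fold enrichment in both lists, and the last 2 widened most with VitC among members in genes of the lists described below. Capitals mark CpG, all are on the plus strand of GRCm38 (mm10), and the letters are from RefSeq's copy of that build.
Irs1 intron, chr1:82244083-82244283: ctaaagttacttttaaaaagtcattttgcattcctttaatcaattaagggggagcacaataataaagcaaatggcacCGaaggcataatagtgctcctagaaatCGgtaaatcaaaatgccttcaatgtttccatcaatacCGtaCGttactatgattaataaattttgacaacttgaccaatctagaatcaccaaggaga
Trerf1 intron, near Mrps10, chr17:47269620-47269820: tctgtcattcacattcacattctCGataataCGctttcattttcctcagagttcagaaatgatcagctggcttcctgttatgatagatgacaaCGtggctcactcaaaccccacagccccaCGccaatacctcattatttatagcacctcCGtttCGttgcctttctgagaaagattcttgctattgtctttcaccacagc
Lrp5 intron, chr19:3640548-3640748: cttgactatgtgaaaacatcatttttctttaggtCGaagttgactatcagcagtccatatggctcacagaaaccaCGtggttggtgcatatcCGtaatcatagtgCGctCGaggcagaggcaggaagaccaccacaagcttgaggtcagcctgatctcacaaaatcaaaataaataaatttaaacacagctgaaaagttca
Fn1 intron, chr1:71609749-71609949: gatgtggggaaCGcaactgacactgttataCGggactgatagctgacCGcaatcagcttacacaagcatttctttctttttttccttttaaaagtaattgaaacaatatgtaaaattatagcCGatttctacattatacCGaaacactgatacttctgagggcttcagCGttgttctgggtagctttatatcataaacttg
Tpm1 exon, chr9:67027882-67028082: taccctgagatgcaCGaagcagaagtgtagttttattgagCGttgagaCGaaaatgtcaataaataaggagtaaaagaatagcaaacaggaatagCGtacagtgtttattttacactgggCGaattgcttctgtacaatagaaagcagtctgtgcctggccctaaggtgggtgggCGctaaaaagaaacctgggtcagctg
These windows hold 4 CpG at Irs1, 5 at Lrp5 and 6 in each of the other 3. None of them is a CpG-dense island of the kind found at housekeeping promoters.

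The peak in Irs1, which codes for an adaptor of the insulin and IGF1 receptors, spanned chr1:82241793-82245363 with a fold enrichment over local background of 38.2 with VitC and 38.6 without. It was 3571 bases wide against 2293, and a 5hmC peak lay on it in all 4 femur lists, with folds of 10.4 in VitC+, 8.40 in VitC+/-, 8.13 in Ctrl and 8.65 in Tet1/2 cKO femurs. It is 1 of the 6 members with the highest fold in both lists, as are the next 3. The member in Trerf1, 99.2 kb from Mrps10, had folds of 33.1 with VitC and 30.6 without and nearly the same width in both lists (1089 and 1039 bases). In Lrp5, a Wnt co-receptor that sets bone mass, the member had folds of 30.6 and 35.7 and was narrower with VitC, at 2992 against 4061 bases. The member in an intron of Ypel2 had a fold of 29.6 in both lists and a width of 3852 against 798 bases. Over these 4 members the log2 fold ratios lay between -0.23 and 0.11, while the width with VitC was between 0.737 and 4.83 times that without. The Trerf1 member also had a peak in all 4 femur lists. The Ypel2 member had none in the VitC+/- femur list, and the Lrp5 member none in the VitC+ and VitC+/- femur lists.

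At the other end, the 3 most widened members in genes of the lists had VitC- peaks of low fold. In Fn1, which codes for fibronectin, a peak of 268 bases with a fold of 4.00 corresponded to one of 5073 bases with a fold of 19.8, which is 18.9 times wider. In Tpm1, an actin-binding tropomyosin, 8876 bases with VitC corresponded to 567 bases without (fold 23.4 and 4.70), the best overlap of 3 VitC- peaks under it. In Runx2, the transcription factor that commits cells to the osteoblast lineage, 5443 bases corresponded to 351 (fold 22.1 and 3.77), again with 3 VitC- peaks under 1 member. These 3 were overlapped in the VitC+, VitC+/- and Ctrl femur lists, and the Tpm1 and Runx2 peaks also in the Tet1/2 cKO list.

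Pairs close to the threshold varied in size, with VitC+ widths of 992 to 1627 bases just inside it and 232 to 883 just outside. The 3 members just inside it had a VitC- peak with a -log10 q of 5.00 and a fold of 3.74 under a VitC+ peak with a fold of 6.55, 11.4 or 7.14. Of the 3 overlapping pairs just outside, 1 missed it through the VitC- peak (-log10 q of 4.998, fold 3.62 against 11.8 with VitC). The other two missed it through the VitC+ peak, with folds of 3.54 and 3.17 against 12.8 and 3.69 without VitC.

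Shared peaks were wider with VitC than without. The median width was 953 bases (quartiles 582 and 1573) in VitC+ and 637 bases (430 and 958) for the VitC- peak with the longest overlap. Of the 65296 members, 45280 (69.3%) were wider with VitC, 19963 were narrower and 53 had equal width. The median log2 width ratio was 0.55, with quartiles of -0.19 and 1.36. Members over 2 times wider made up 35.1% and members over 4 times wider 10.6%, against 8.43% that were over 2 times narrower. Over all peaks past the threshold, members and partners included, the median width was 639 bases in VitC+ and 471 in VitC-, a log2 ratio of 0.44. Peaks past the threshold in 1 list only, which lie in different regions, had medians of 542 bases in VitC+ and 436 in VitC-.

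The shared regions covered 81.6 Mb in VitC+ and their partners 47.7 Mb in VitC-. Members therefore made up 32.9% of the VitC+ peaks but 46.9% of the covered length, and partners 40.8% of the VitC- covered length. In 39.0% of members the VitC- peak lay wholly inside the VitC+ peak, in 9.56% the VitC+ peak lay inside the VitC- peak, and 51.4% were staggered. Summits were a median of 265 bases apart. They fell within 100 bases of each other in 29.6% of members and over 500 bases apart in 28.8%. A single VitC- peak lay under 59637 members, and 5659 (8.67%) covered 2 or more, up to 7. Conversely, 4536 VitC- peaks lay under 2 or more members, and 51994 members (79.6%) formed pairs of 1 peak to 1 peak.

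Fold enrichment moved less than width. The median fold was 8.04 with VitC and 6.41 without, the median log2 ratio was 0.23, and 60.04% of members had the higher fold with VitC. Over all peaks past the threshold, members and partners included, the median fold was 5.97 in VitC+ and 5.41 in VitC-, a log2 ratio of 0.14. The fold stayed within 1.5 times in 46.9% of members, was over 2 times higher in 19.01% and over 2 times lower in 10.3%. Pileup, the height of stacked fragments at the summit as the peak caller scaled it, had a median of 37 with VitC and 28 without. The depth of the 2 lists is unknown. Width and fold moved together across members (Pearson r = 0.55 over 65296 members, which share their libraries and are not independent). Both measures could also part: 50.4% were wider with a higher fold, 20.99% narrower with a lower fold, 18.9% wider with a lower fold and 9.58% narrower with a higher fold.

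**Figure D1:**
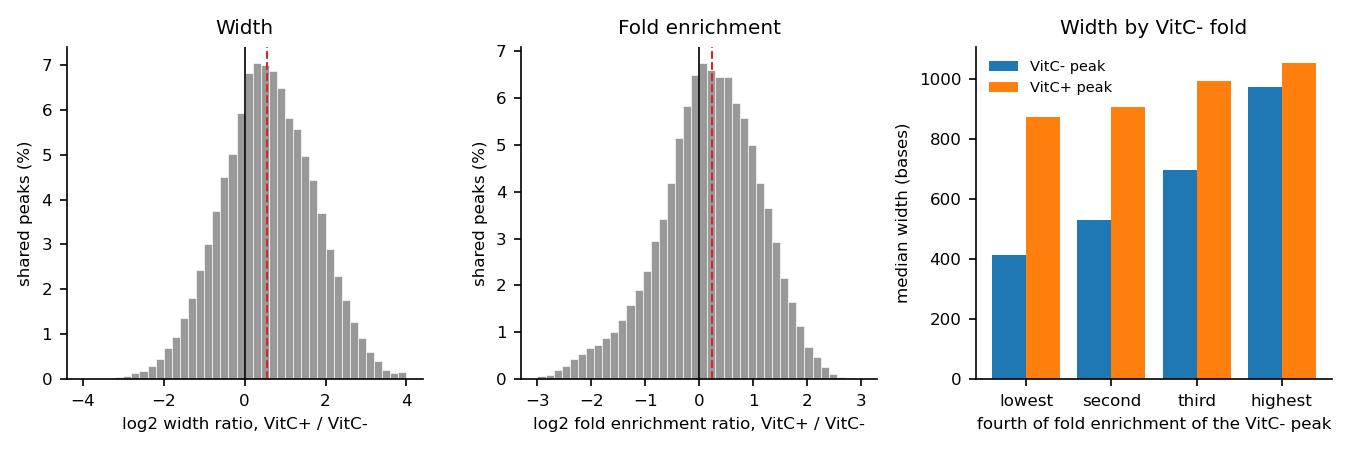
The first 2 panels show the share of shared peaks (%) by the log2 ratio of width and of fold enrichment, VitC+ over VitC-, with ratios past the axis ends placed in the end bars, a black line at no difference and a dashed red line at the medians of 0.55 and 0.23. The last panel shows the median width in bases of the VitC- (blue) and VitC+ (orange) peaks in quartiles of the VitC- fold, where VitC- widths climb from 415 to 975 bases and VitC+ widths from 873 to 1055.

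How much a member widened went with the fold of its VitC- partner. In the lowest quartile of partner fold 83.0% of members were wider with VitC, and the shares in the following quartiles were 75.2%, 67.2% and 52.2%. The median log2 fold ratio ran from 0.80 in the lowest quartile over 0.49 and 0.11 to -0.66 in the highest. Because the partner's own fold forms the quartiles and the ratio, this order is a description of the pairs and holds a part that follows from sorting on 1 side of a ratio. Members wider with VitC held 3.72 CpG in such a window at the summit and members narrower with VitC 2.93. A Ctrl femur peak overlapped 80.4% of the wider and 65.4% of the narrower members.

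Sequence at the summit set shared and VitC+ only peaks apart from VitC- only peaks. VitC+ only peaks are the 133079 peaks past the threshold with no such VitC- peak under them, of which 14680 (11.0%) overlapped a weaker VitC- peak. VitC- only peaks are the 137782 in the opposite case. Members held on average 3.48 CpG in the window of 100 bases on either side of the VitC+ summit, VitC+ only peaks 3.61, VitC- only peaks 1.13, and windows on a grid across the autosomes 1.70. No CpG at all was found at 1.70% of members and 0.218% of VitC+ only peaks, but at 39.9% of VitC- only peaks and 29.9% of grid windows. At the VitC- summit of the members the mean was 2.74 CpG and 7.24% had none. Bases masked as repeats made up 16.8% of member windows, 17.3% of VitC+ only, 43.0% of VitC- only and 33.4% of grid windows. Median GC content was 44.8% in all 3 peak classes, and 41.8% on the grid.

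Members that lacked CpG at their summit were few and unlike the rest. They numbered 1112 (1.70%), and their median fold was 4.59 with VitC and 18.7 without, a median log2 ratio of -1.95. With more CpG the fold ratio turned toward VitC+, from -0.08 at 1 to 2 CpG over 0.31 at 3 to 4 and 0.57 at 5 to 7 to 0.68 at 8 or more. The median log2 width ratio followed the same order, from -0.76 without CpG to 0.98 at 8 or more.

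A few motifs were counted in the same windows on both strands. TGTGGTT, the letters bound by RUNX factors, occurred in 7.12% of members at the VitC+ summit and in 10.0% at the VitC- summit, against 8.95% of VitC+ only peaks, 3.14% of VitC- only peaks and 4.76% of grid windows. TGACTCA or TGAGTCA, the AP-1 site, occurred in 4.18% of members, 5.29% of VitC+ only, 2.24% of VitC- only and 3.15% of grid windows. A CA dinucleotide repeated 6 times was found in 1.98% of members, 1.62% of VitC+ only and 4.63% of VitC- only peaks, with 3.13% on the grid. None of the 5 windows printed above holds the RUNX or the AP-1 letters.

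**Figure D2:**
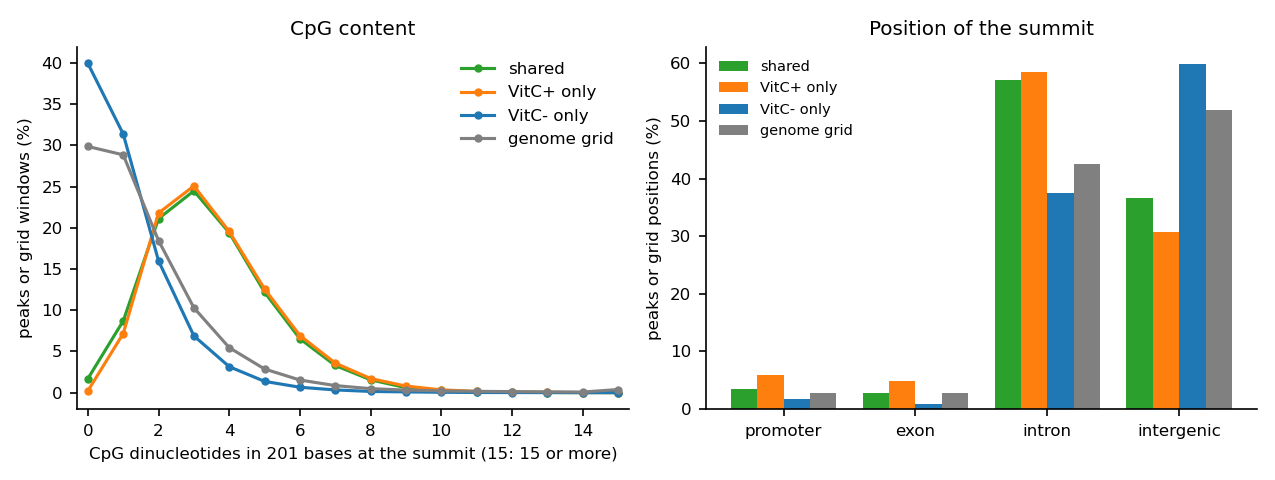
Share (%) of shared, VitC+ only and VitC- only peaks and of grid windows by the number of CpG in the window at the summit, and by the position of the summit relative to genes. Shared and VitC+ only peaks peak at 3 CpG, VitC- only peaks and grid windows at 0, and introns hold 57.1% of shared against 37.5% of VitC- only summits.

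Shared peaks lay mainly in introns. By the position of the summit, 57.1% of members were intronic, 36.6% intergenic, 2.76% exonic and 3.55% within 1 kb of a transcription start. VitC+ only peaks were closer to genes, with 58.6% intronic, 4.93% exonic and 5.83% at starts, and VitC- only peaks farther, with 59.8% intergenic and 1.82% at starts. The grid gave 42.5% intronic, 51.9% intergenic and 2.80% at starts. The median distance to the nearest start was 24.1 kb for members, 20.8 kb for VitC+ only, 46.7 kb for VitC- only peaks and 37.6 kb on the grid. The 1801 exonic members widened most, with 78.0% wider and a median log2 width ratio of 0.81. The 37255 intronic members followed with 72.4% and 0.67, the 2318 at starts with 73.3% and 0.60, and the 23922 intergenic ones with 63.5% and 0.36. The share of strong VitC+ peaks that were shared ran from 26.8% on chromosome 14 to 39.7% on chromosome 6.

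Of 20751 autosomal protein-coding genes, 7820 (37.7%) held at least 1 member, that is, a summit in the gene or within 2.5 kb upstream of its start. In 1139 genes (5.49%) a member lay at the start, and 1014 genes held 10 or more. Gene models differ in length, so that densities per 100 kb of gene span are given beside counts. Over all protein-coding genes the summed density was 3.64 members per 100 kb. The highest counts were in Gm20388 (293 members) and Fgfr2 (175), whose annotated models run over 4437 and 2963 kb and across many other genes, so that these counts do not belong to the 2 genes alone. Next came Zfhx3, a homeobox and zinc finger transcription factor, with 118 members and 11.6 per 100 kb. Rad51b, of DNA recombination, held 93 (17.9 per 100 kb) and Pard3b, a polarity protein, 91 (9.05 per 100 kb).

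Transcription factors of osteoblasts held shared peaks in 9 of 14 genes, at 12.46 per 100 kb of summed span. Runx2 held 56 members that covered 168915 bases with VitC and 51766 bases without, beside 41 VitC+ only and 3 VitC- only peaks. Prrx1, a homeobox factor of limb and skull mesenchyme, held 16 (22.5 per 100 kb, 36011 bases with VitC and 17128 without), and members were 66.7% of its strong VitC+ peaks. Tead1, the DNA-binding partner of YAP, held 21 (37370 and 13124 bases) next to 65 VitC+ only peaks. Sp7 (osterix), a short gene, held 4. Foxc1, Msx2, Snai2, Twist1 and Zfp36l1 held none, with 2, 1, 1, 9 and 8 members within 30 kb of their starts.

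Genes of bone matrix and mineralization held members in 17 of 23 autosomal genes, at 9.83 per 100 kb. Fbn1, which codes for fibrillin of elastic microfibrils, held 35 members that covered 82517 bases with VitC and 39515 without. Ank, a transporter that exports the mineralization inhibitor pyrophosphate, held 16 (42825 and 12431 bases). The collagen V genes Col5a2 and Col5a1 held 15 (24973 and 8064 bases) and 14 (23839 and 15609). Bglap, which codes for osteocalcin, held 1 member of 509 bases. The type I collagen gene Col1a1 and the genes Spp1, Phospho1, Lox, Bglap2 and Enpp1 held none, while Col1a2 held 5. Within 30 kb of the start, Col1a1 and Spp1 had 7 members, Phospho1 8, Lox 5, Bglap2 4 and Enpp1 0.

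In Wnt, BMP and TGF-beta signaling 15 of 22 genes held members, at 12.1 per 100 kb. Ltbp1, which binds latent TGF-beta in the matrix, held 55 (69105 bases with VitC and 47578 without), and the TGF-beta co-receptor Tgfbr3 held 33 (58654 and 26857). Tcf7l2, the transcription factor at the end of the Wnt pathway, held 36, which were 62.1% of its strong VitC+ peaks and covered 109997 bases with VitC against 49641 without. Smad3, which carries the TGF-beta signal into the nucleus, held 21 (39040 and 16170 bases), and Lrp5 held 16 that covered 22315 and 20575 bases. The ligands Bmp2, Bmp4, Wnt5a and Wnt10b, and Bmpr1b, Fzd1 and Nog, held none. Within 30 kb of the start, Bmp2, Bmp4, Wnt10b and Nog had 2 members, Wnt5a 1, and Bmpr1b and Fzd1 0.

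Among VitC-dependent dioxygenases 13 of 16 genes held members, at 7.18 per 100 kb. Tet3 held 14 (21851 bases with VitC and 10090 without) and Tet1 held 9 (9541 and 6647), both coding for enzymes that make 5hmC. Plod2, a lysyl hydroxylase of collagen, held 10 (21240 and 9992 bases) and Kdm4c, an H3K9 demethylase, 8 (4646 and 3918). Cytoskeleton and adhesion genes held members in 11 of 15 cases, at 10.4 per 100 kb. Vcl (vinculin) held 13 that covered 13707 bases with VitC and 6025 without. Itgb1 (integrin beta 1) held 6 (4609 and 2757 bases), Myh9 (non-muscle myosin heavy chain) 6 (11365 and 3787) and Tpm1 5 (17354 and 2146).

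Marker genes of other cell types were counted in the same way. The 8 skeletal muscle genes held 0 members and the 7 neuronal ones 15, which is 0.623 per 100 kb. Blood cell genes held 4 members, all in Spi1 (1.92 per 100 kb), chondrocyte genes 6 (1.98), and endothelial genes 21 (2.57). Adipocyte genes reached 10.3 per 100 kb, with 19 of their 24 members in Pparg, the nuclear receptor of adipocyte differentiation. The lists were not tested against each other, and list densities rest on a few long genes. Density does not set shared apart from VitC+ only peaks, which outnumbered members in each of these lists. Members were 36.6% of strong VitC+ peaks in osteoblast factors, 31.6% in matrix, 43.2% in signaling, 35% in dioxygenase and 33.9% in cytoskeleton genes. They were 30.2% over all protein-coding genes, 44.1% in neuronal, 40% in blood cell, 36.9% in adipocyte, 32.3% in endothelial and 27.3% in chondrocyte markers.

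**Figure D3:**
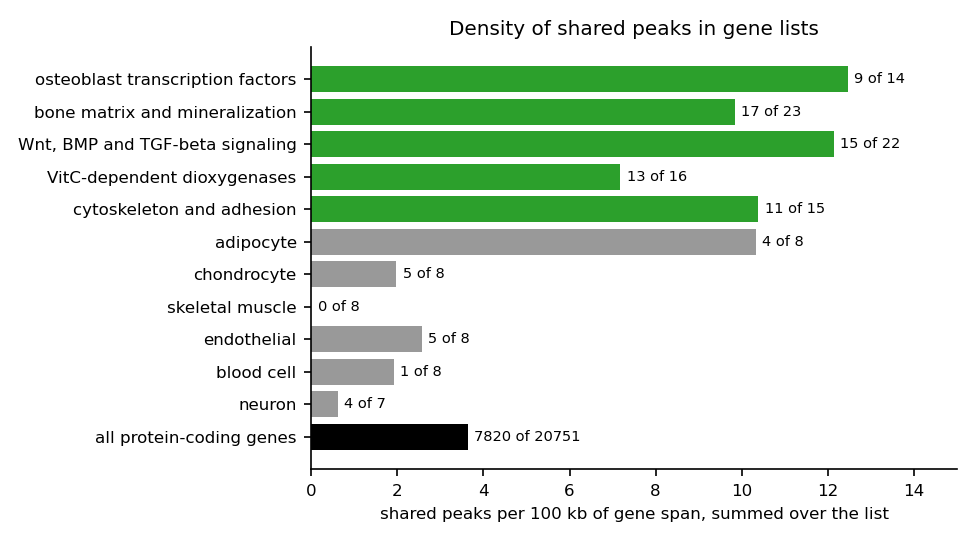
Shared peaks per 100 kb of gene span, summed over each list, for lists of bone and VitC biology (green), markers of other cell types (gray) and all protein-coding genes (black), with the number of genes that held a member. The green bars run from 7.18 to 12.46, the gray ones from 0 to 10.3, and all protein-coding genes lie at 3.64. The bars count shared peaks only, and VitC+ only peaks in the same genes are not drawn.

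Joined across gaps of the size used to stitch super-enhancers, members formed 21999 groups. Of these, 10766 were single members (16.49% of members) and 1138 held 10 or more (28.7% of members). No such counts are given for VitC+ only or VitC- only peaks, so that grouping is not shown to be particular to members. The most covered bases lay at Runx2 and Supt3, chr17:44489355-44797762, where 58 members covered 172461 bases with VitC and 55962 without, and 46 of them were wider with VitC. The median fold there was 14.3 with VitC and 7.38 without. At Efna5, an ephrin ligand, 29 members covered 135335 bases against 27770 (chr17:62682170-62876145, median folds 18.98 and 6.76). At Bicc1, which codes for an RNA-binding protein, 49 members covered 133073 bases against 50867 (chr10:70966372-71220599). A stretch of non-coding RNA genes with Mreg as the nearest protein-coding gene held 61 members (chr1:71793641-72120715), with 115047 bases against 59250. At Tcf7l2, 38 members covered 113432 bases against 50941 (chr19:55718834-55914682). In each of the 5 groups VitC+ only peaks were interspersed, between 18 and 50 of them.

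Femur 5hmC, a measure that the rule did not use, lay on most shared peaks. A VitC+ femur peak overlapped 62.5% of members, a VitC+/- femur peak 55.2%, a Ctrl femur peak 75.8% and a Tet1/2 cKO femur peak 56.7%. The corresponding shares of VitC+ only peaks were 43.6%, 36.1%, 63.0% and 36.5%, and those of VitC- only peaks 44.3%, 48.6%, 20.2% and 12.7%. All 4 femur lists overlapped 33.6% of members, 16.4% of VitC+ only and 5.24% of VitC- only peaks, and no femur list touched 12.0%, 25.3% and 38.2%. Of members with a Ctrl femur peak, 73.8% also had a Tet1/2 cKO peak, against 57.2% of VitC+ only peaks with a Ctrl femur peak. The lists differ in length, with 371568 autosomal peaks in VitC+, 399599 in VitC+/-, 257305 in Ctrl and 145925 in Tet1/2 cKO femurs, so that shares compare peak classes within a list more directly than lists with each other. Femur peaks at members had a higher median fold than all peaks of their list: 5.95 against 4.30 in VitC+, 5.88 against 4.38 in VitC+/-, 4.73 against 3.45 in Ctrl and 4.71 against 4.02 in Tet1/2 cKO femurs.

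Width moved with these shares. Members were wider (median 953 bases) than VitC+ only (542) and VitC- only peaks (436), and a Ctrl femur peak overlapped 53.6% of the narrowest quartile of members and 94.0% of the widest. In VitC+ only peaks of the same 4 width classes the Ctrl shares were 50.5%, 71.4%, 83.7% and 93.5%, against 53.6%, 71.8%, 83.7% and 94.0% in members. In the Ctrl list, members and VitC+ only peaks of like width thus had similar shares. In the Tet1/2 cKO list the shares by width were 34.9%, 49.5%, 61.8% and 80.6% in members and 23.8%, 43.2%, 57.7% and 76.3% in VitC+ only peaks, and in the VitC+ femur list 48.4%, 56.6%, 65.0% and 79.9% against 34.5%, 48.3%, 58.7% and 72.0%. Taken at the summit alone, which leaves width out, the shares of members were 43.6% in VitC+, 34.9% in VitC+/-, 68.3% in Ctrl and 47.4% in Tet1/2 cKO femurs. At VitC+ only summits they were 32.4%, 24.8%, 57.6% and 31.5%, and at VitC- only summits 39.3%, 42.6%, 17.7% and 11.2%. In the VitC+/- femur list VitC- only summits thus had a larger share than members when the summit alone was counted, the reverse of the order by overlap. The classes also differ in median fold, with 8.04 in members, 5.51 in VitC+ only and 5.17 in VitC- only peaks. Shares at like fold were not compared.

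**Figure D4:**
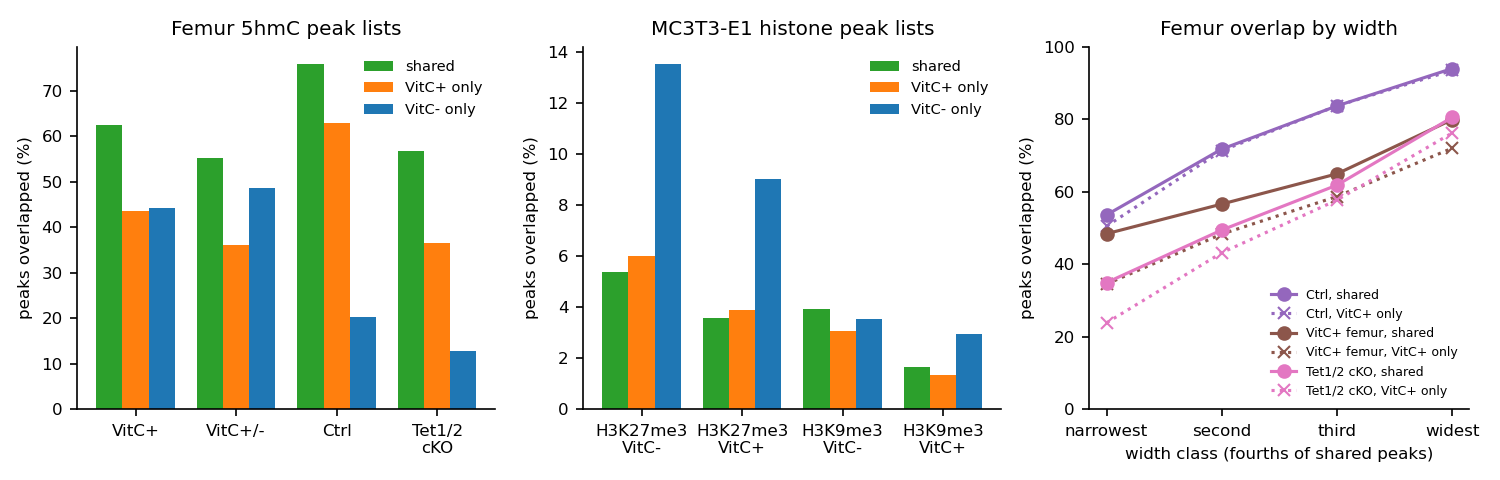
Share (%) of shared, VitC+ only and VitC- only peaks overlapped by a peak of each femur 5hmC list and each MC3T3-E1 histone list, and the femur share by width class, with circles for shared and crosses for VitC+ only peaks. Shared peaks have the largest share in each of the 4 femur lists, and the Ctrl lines of shared and VitC+ only peaks lie close together across width classes.

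Repressive histone marks overlapped few members. H3K27me3, the mark of Polycomb repression, lay on 5.37% of members in VitC- cells and on 3.56% in VitC+ cells. VitC+ only peaks had 6.00% and 3.89%, and VitC- only peaks 13.5% and 9.02%. H3K9me3, the mark of heterochromatin, lay on 3.91% of members in VitC- and 1.66% in VitC+ cells. The corresponding values were 3.08% and 1.34% for VitC+ only peaks and 3.53% and 2.95% for VitC- only peaks. Members are also the widest class, which can raise their share by overlap. For H3K9me3 in VitC- cells they had the largest share by overlap but the smallest at the summit alone. The summit shares there were 1.963% for members, 2.12% for VitC+ only and 2.85% for VitC- only peaks. In VitC+ cells they were 0.83%, 0.856% and 2.29%. The lists held 77593 and 70411 H3K27me3 peaks and 33757 and 31990 H3K9me3 peaks in VitC- and VitC+ cells, at a false discovery rate of 0.05. None of the 7 members described by fold or widening overlapped a peak of either mark.

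Femur RNA was then examined for the genes that hold members, by comparing VitC+/- with VitC+ mice. Of 12571 genes tested with limma, 13.5% changed, 7.96% lower and 5.5% higher in VitC+/- (Benjamini-Hochberg adjusted p under 0.05). Of the 5790 tested genes that hold a member, 417 (7.20%) were lower and 394 (6.80%) higher. Of the 5769 matched and tested genes with no member, 505 (8.75%) were lower and 260 (4.51%) higher. The share higher in genes with a member lay above that of all genes under each setting tried. These differences in share were not tested. Genes with 10 or more members were lower in 52 of 817 cases (6.36%) and higher in 51 (6.24%), and genes with a member at the start lower in 79 of 841 (9.39%) and higher in 58 (6.90%). The median log2 fold change was 0.06 in genes with a member and -0.04 in genes with none. Genes with a member were more often expressed at a level that allowed a test, 76.7% against 48.9% of those without. They were also longer, with a median span of 46.3 against 15.6 kb. Among genes of at least 50 kb, 41.0% with no member, 73.9% with 1 to 9 and 82.3% with 10 or more were expressed at that level. In the same order, 5.77%, 7.68% and 6.20% of those tested were higher in VitC+/-, and 8.85%, 6.48% and 6.20% lower. With RPKM as deposited, which moves the median of all genes by 0.13 on the log2 scale, 172 genes with a member (2.97%) were lower and 261 (4.51%) higher, against 3.22% and 3.75% of all genes tested. The counts also fell by more than 1.5 times without VitC+ replicate 1, 2 or 3 or VitC+/- replicate 1, and the count of higher genes without WT replicate 3. The lowest count of higher genes was 96 (1.67%, with 158 or 2.75% lower) without VitC+ replicate 2, where 1.21% of all genes were higher and 2.77% lower. The lowest count of lower genes was 136 (2.37%, with 124 or 2.16% higher) without VitC+ replicate 3, where 2.79% of all genes were lower and 1.73% higher. Without VitC+ replicate 1 the counts were 190 (3.3%, 3.56% of all) lower and 153 (2.66%, 2.14% of all) higher. Without VitC+/- replicate 1 they were 147 (2.57%, 2.63% of all) and 108 (1.89%, 1.3% of all). Without WT replicate 3 they were 282 (4.89%, 5.39% of all) and 235 (4.07%, 3.33% of all). In RNA of bone tissue, fewer cells of a type and less RNA per cell cannot be told apart.

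Of the listed genes with many shared peaks described above, Tead1 passed the test. Values below are RPKM divided by a scaling factor per library, and fold changes are on the log2(value + 0.5) scale. Tead1 had 1.46, 1.55 and 1.83 in the VitC+ femurs and 4.19, 6.69 and 6.24 in the VitC+/- femurs, a log2 change of 1.53 ± 0.26 (SE, n = 3, limma adjusted p = 0.0089). The VitC+ and VitC+/- groups did not overlap, and the gene remained past the threshold under all 14 alternative fits.

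Runx2, with the most members of the osteoblast factors, had 10.2, 11.1 and 13.6 in VitC+ and 7.23, 5.29 and 8.88 in VitC+/- femurs. The groups did not overlap, but the log2 difference of -0.69 ± 0.20 (SE, n = 3) had a limma adjusted p of 0.0532. Prrx1 ranged from 4.40 to 10.3 and from 2.96 to 15.4, and its groups overlapped. Fbn1 had 7.10, 4.95 and 7.42 against 14.3, 8.66 and 36.8, with no overlap and a limma adjusted p of 0.0694. Col5a1, Col5a2 and Ank overlapped between the groups, and all 3 spread widely among the VitC+/- femurs (17.7 to 219, 15.8 to 213 and 14.6 to 44.3). Tcf7l2 stayed between 2.51 and 3.67 in all 6 femurs. Ltbp1, Tgfbr3 and Smad3 had log2 differences of 0.20 ± 0.32, 0.88 ± 0.41 and -0.50 ± 0.19 (SE, n = 3, limma adjusted p = 0.713, 0.18 and 0.109).

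Among dioxygenases, Tet3 had 4.75, 6.36 and 5.53 in VitC+ and 7.52, 9.91 and 7.34 in VitC+/- femurs, without overlap and with a limma adjusted p of 0.0708. Tet1 lay under the filter on low values, at 0.364 to 0.62 in VitC+ and 0.175 to 0.27 in VitC+/- femurs, and was not tested. Plod2 and Kdm4c overlapped between groups, with log2 differences of -1.09 ± 0.59 and -0.02 ± 0.17 (SE, n = 3). Vcl, Itgb1 and Tpm1 overlapped as well. Myh9 had 41.0 to 53.2 in VitC+ and 58.3 to 76.2 in VitC+/- femurs, with a limma adjusted p of 0.332.

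**Figure D5:**
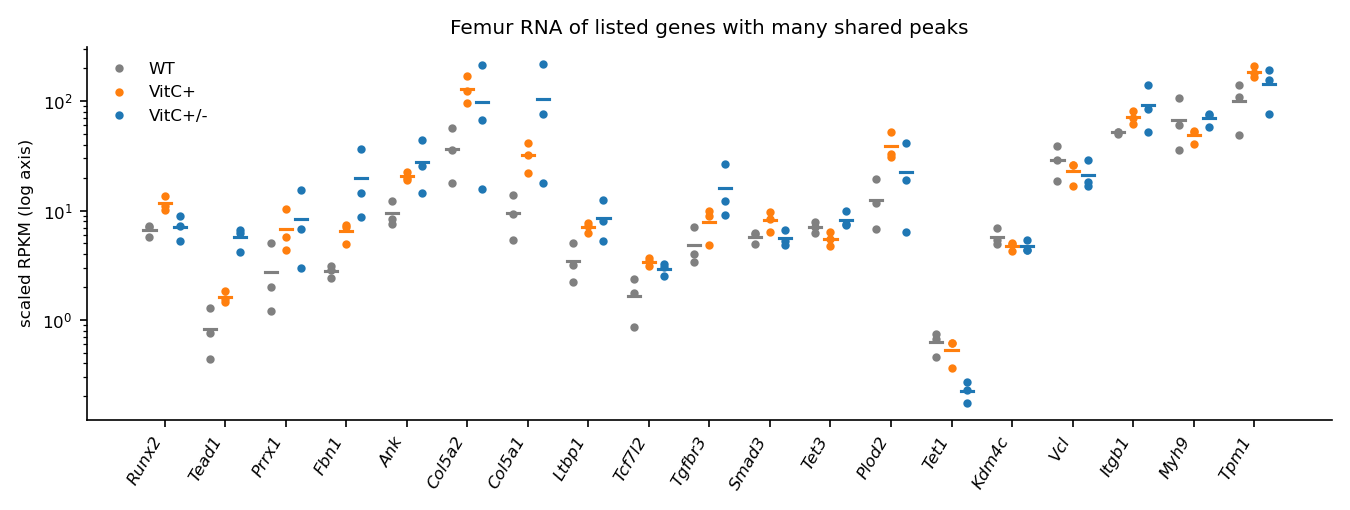
Femur RNA in scaled RPKM (log axis) of 3 or 4 genes per list with many shared peaks, with a point for each of 3 libraries of WT, VitC+ and VitC+/- mice and a bar at their mean. Tead1 is the gene here whose VitC+ and VitC+/- points separate with an adjusted p under 0.05.

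Of the 5 genes with the most members of all, Gm20388 was not tested and the other 4 did not pass the test. Zfhx3 lay at 1.06 to 1.45 in VitC+ and 1.03 to 1.47 in VitC+/- femurs and Fgfr2 at 13.7 to 20.2 and 16.7 to 25.7, with overlap. Rad51b lay at 0.814 to 1.54 and 0.606 to 0.973, also with overlap. Pard3b had 1.89, 1.84 and 2.35 against 1.06, 1.02 and 1.54, without overlap but with a limma adjusted p of 0.142. Of genes at the strongest single peaks, Irs1 lay at 3.30 to 5.69 and 4.29 to 8.96. Lrp5 had 13.5, 13.4 and 17.8 against 8.41, 12.46 and 9.72, a log2 difference of -0.53 ± 0.19 (SE, n = 3) with a limma adjusted p of 0.087. Of genes in the largest groups of members, Bicc1 had 6.16, 4.12 and 6.61 against 9.89, 9.63 and 16.3, without overlap and with a limma adjusted p of 0.0866. Efna5 overlapped between the groups.

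Outside the rule for named genes, 12 other listed genes with a member that passed the test are given here because of their values. Lower in VitC+/- were Dlx3 and Mef2c of the osteoblast factors, Bglap, Col11a1 and Dmp1 of the matrix genes, the Wnt antagonists Dkk1 and Sost, and Actb. Higher were Kdm4b and Tet2 of the dioxygenases, and Ccn2 and Itga5 of the adhesion genes. Bglap, with 1 shared peak, went from 3636, 1112 and 1477 to 11.1, 8.12 and 8.69, a log2 change of -7.54 ± 0.71 (SE, n = 3, limma adjusted p = 0.0007). Its near-identical neighbors Bglap2 and Bglap3 can share its reads, so that the value is uncertain for the single gene. Tet2, with 2 shared and 11 VitC+ only peaks, went from 3.22, 4.73 and 3.73 to 8.79, 8.80 and 6.58 (log2 change 0.96 ± 0.19, SE, n = 3, limma adjusted p = 0.0153). Itga5 and Bglap passed under all 14 alternative fits, and the other 10 of these 12 genes did not, with the fewest in Actb (5 of 14) and Ccn2 (6 of 14).

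By list, 3 of 9 tested osteoblast factors with a member were lower and 1 higher, and so were 3 and 0 of 17 matrix genes. The counts were 2 and 0 of 14 in Wnt, BMP and TGF-beta signaling, 0 and 2 of 12 in dioxygenases and 1 and 2 of 11 in cytoskeleton and adhesion. With genes that lack a member included, they were 3 and 1 of 13, 5 and 1 of 23, 2 and 1 of 20, 0 and 2 of 15 and 2 and 2 of 14. Over all genes tested, 7.96% were lower and 5.5% higher, and these small counts were not tested against those shares. Markers of other cells moved between the same femurs. Summed over the list, adipocyte markers were at 204 to 433 in VitC+ and 303 to 1875 in VitC+/- femurs with 0 of 7 tested called, and Lep was at 0 in all WT and VitC+/- femurs and in 2 of 3 VitC+ femurs. Chondrocyte markers were at 135 to 444 and 32.5 to 47.0, with Col2a1 alone lower of 5 tested. Skeletal muscle markers were at 13.7 to 654 and 2.76 to 291 with 0 of 4 called, and blood cell markers at 3523 to 5332 and 2041 to 4329 with 3 of 8 lower. Endothelial markers were at 90.5 to 104 and 88.6 to 112 with 0 of 8 called. Their part in the RNA differences was not tested.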

How the data were processed

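Peak lists were made by the authors with BWA 0.7.15.1 on mm10 and MACS2 2.1.1.20160309.6 (per the labels; the methods name another MACS2 version), on samples pooled per group for 5hmC. Pooling is not stated for the histone lists, whose peak names hold only the first replicate's name. The deposited fold enrichment is a ratio over local background, the deposited -log10 q is the MACS2 value, and the deposited pileup is a signal at the summit. For MC3T3-E1 5hmC the labels hold 2 samples per group. Depth of the peak data is unknown, since the lists give no library totals. The authors aligned RNA reads with STAR 2.6.0b-1 and deposited RPKM per gene and library, and counts were not used here.

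A peak was paired with the VitC- peak of longest overlap. Sequence is from GRCm38.p6, whose chromosome lengths equal those of mm10, and gene models are from GENCODE M21 (basic), with introns of protein-coding and long non-coding genes. Histone peaks with a -log10 q of at least 1.3 were used. The grid had a point every 1000 bases.

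Of 23358 RNA entries, 69 that share 26 names were left out. limma 3.58.1 (eBayes, trend) was fitted over all 9 libraries to genes that reached 1 RPKM in 3 or more of them. RPKM had been divided by median-of-ratios factors, and 0.5 was added before taking log2. Factors were 0.961 to 1.11, except 0.746 in VitC+ replicate 1. Of the names, 17787 matched a protein-coding gene by symbol and 1561 by synonym. The fit was tested on simulated data with known changes. P-values were adjusted by Benjamini-Hochberg. Members and gene lists were chosen with earlier results of these data known. Named were the 6 members with the highest lower fold of a pair, the 3 most widened in listed genes, 3 on each side of the threshold, the 5 stitched groups with the most covered bases, the 5 genes with the most members and up to 4 per list, of which some are not reported here. Thresholds, overlap, windows, scaling, filter, pseudocount, libraries and a replicate block were varied. R 4.3.3, Python 3.11.15, numpy 2.4.6, pandas 2.3.3 and matplotlib 3.10.9 were used.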

Additional observations from a re-analysis of the deposited data

How the results depend on the processing

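The peak lists have no replicates and no depth, so that no setting gives a test of them. At a threshold of 10 in place of 5, 35758 members were left, with a median log2 width ratio of 0.58, a median log2 fold ratio of 0.14 and 3.27% at starts. Femur overlap was then 67.0% (VitC+), 58.9% (VitC+/-), 81.3% (Ctrl) and 63.0% (Tet1/2 cKO), and H3K27me3 3.98% and 2.62% and H3K9me3 4.15% in VitC-. At a threshold of 2 the ratios were 0.52 and 0.26, the femur shares 60.4%, 53.5%, 72.8% and 53.2%, and H3K27me3 6.32% and 4.28%. With an overlap over 0.5 of the shorter peak, the ratios were 0.66 and 0.29, the shares 64.5% (VitC+), 57.4% (VitC+/-) and 57.4% (Tet1/2 cKO), and H3K27me3 3.72% in VitC+. Pairs of 1 peak to 1 peak gave 0.59 and 0.24, the summed width of all VitC- peaks under a member 0.49, and pileup in place of fold 0.28. A window of 2.5 kb put 8.49% at starts. Femur peaks with a -log10 q of at least 5 gave 58.1%, 51.9%, 70.5% and 41.6%. The summit alone, an alternative chosen after seeing the data, gave 43.6%, 34.9%, 68.3% and 47.4% in femurs, 3.74% and 2.36% for H3K27me3 and 1.963% and 0.83% for H3K9me3 (VitC-, then VitC+). Histone lists as deposited gave 5.57% and 3.91% for H3K27me3 and 4.60% for H3K9me3 in VitC-. Shared peaks were wider and of higher fold with VitC in the median under each of these settings.

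In femur RNA, RPKM as deposited called 172 genes with a member lower (2.97%, 3.22% of all) and 261 higher (4.51%, 3.75% of all), against 417 and 394. Without 1 library the counts ran from 136 to 533 lower and from 96 to 570 higher. These counts moved with those of all genes: the share lower ran from 2.37% to 9.24% in genes with a member and from 2.63% to 10.3% in all, and the share higher from 1.67% to 9.89% and from 1.21% to 8.01%. The replicate block gave 529 lower (9.14%, 10.1% of all) and 515 higher (8.89%, 7.22% of all). Same-numbered VitC+ and VitC+/- libraries share only a number: their deviations correlated at -0.07, 0.06 and 0.37, and only number 3 matched itself best. Differences near 0 changed sign in 7 named genes. Without 1 library, the log2 difference ran from -0.091 to 0.70 in Ank, -0.093 to 0.63 in Itgb1, -0.10 to 0.49 in Ltbp1, -0.46 to 0.64 in Prrx1 (all lowest without VitC+/- replicate 3), -0.10 to 0.034 in Kdm4c, -0.35 to 0.036 in Vcl (highest without VitC+/- replicate 2) and -0.059 to 0.13 in Zfhx3. Kdm4c was also at 0.0017 without a filter and at 0.11 with RPKM as deposited, where Vcl was at 0.021. None of these 7 passed the test under the main settings. The cause of these shifts was not tested.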
